A study of Mus musculus with 4 samples.

Results

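The genes described here are the small heat shock protein genes Hspb1, Hspb2, Hspb8 and Cryab together with Bag3, the co-chaperone that works with Hspb8. They were chosen by symbol: every probe set that the platform annotation assigns to one of these 5 symbols was taken, of 12394 gene symbols in the table. The 5 genes had 10 probe sets, of which 7 had a value on all 4 arrays and were tested and 3 had values at 1 of the dates only. The samples were YAMC cells, an established, conditionally immortalised mouse line named for its origin in young adult colon epithelium, and their total RNA was measured on mouse 430A arrays. The untreated group was given no treatment and the LGG group was kept for 16 h in medium conditioned by Lactobacillus GG, a probiotic bacterium. Each group had 2 arrays, and the titles carry 2 dates, each with 1 array of each group, named date 1 and date 2. What the dates mark is not given, and no label mentions separate cultures, so the spread between these arrays may be technical. The p-values come from a fit blocked by date and rest mostly on variance shared across genes. They do not measure the spread between cultures. Medium without bacteria, or brought to the same acidity, was not analysed here.

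Small heat shock proteins are ATP-independent chaperones built around a conserved alpha-crystallin domain. They assemble into large oligomers that hold unfolding proteins in a soluble state until Hsp70 chaperones refold them. Hspb1, known as Hsp25 in the mouse, also protects actin filaments and is phosphorylated by kinases downstream of p38. In intestinal epithelium it is an inducible cytoprotective protein. Bag3 joins Hspb8 and Hsp70 and steers misfolded clients into autophagy. The heat shock factor HSF1 drives many of these genes through heat shock elements, arrays of GAA units in alternating orientation.

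The deposited table gives values and no sequences, so the promoters of the members were taken from the RefSeq promoter table of build GRCm38.p6, which covers 250 bases before to 50 bases after a gene's start. The table matched 3 of the 5 genes, Hspb1, Hspb8 and Bag3. The windows were searched for a pair of facing or opposed GAA units, GAANNTTC or TTCNNGAA, both of which read the same on either strand. All 3 promoters held GAANNTTC, and all 3 held it as the same 8 letters. The Hspb1 promoter held it at a second place as well. The 30 bases around each match are shown because members with the same letters had fitted changes of different size; capitals mark the match, and each line reads 5′ to 3′ on the gene's strand.
Hspb1, chr5:135887791-135887820, plus strand, match from -117 to -110: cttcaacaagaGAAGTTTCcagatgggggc
Hspb1, chr5:135887811-135887840, plus strand, match from -97 to -90: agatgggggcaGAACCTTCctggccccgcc
Hspb8, chr5:116422844-116422873, minus strand, match from 3 to 10: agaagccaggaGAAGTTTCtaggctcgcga
Bag3, chr7:128523603-128523632, plus strand, match from 43 to 50: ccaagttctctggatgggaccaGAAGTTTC
Hspa1a, an Hsp70 gene shown for comparison, chr17:34972242-34972271, minus strand, match from -104 to -97: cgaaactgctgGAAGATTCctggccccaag

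Positions count from the annotated start, with 1 as its first base and -1 as the base before it. The matches of Hspb1 and Hspa1a lay upstream of the start, at -117 to -90 and -104 to -97, whereas those of Hspb8 and Bag3 lay just downstream of it. Upstream matches were not limited to genes that rose. Of the heat-inducible genes listed below, Fkbp4 and Hspe1 did not pass and held matches at -151 to -144 and -89 to -72. Hspa4l passed and held 0, and Hsph1 passed with matches on both sides of its start. Whether position bears on the response was not tested. Among all 32851 promoters of the same length, 7.86% held GAANNTTC, 8.52% held TTCNNGAA and 15.1% held either. The exact letters shared by the members, looked up on either strand after the matches were seen, were in 1.21% of promoters. Motifs of 3 units, GAANNTTC followed by NNGAA or TTCNNGAA followed by NNTTC (each is the other read on the opposite strand), overlap the shorter ones by design and were in 0.603% of promoters and in 0 of the members' windows. A match is a description of letters and not of a binding site. The whole 250 bases before the start of Hspb1 are given because this was the member that rose, with both matches in capitals.
Hspb1, chr5:135887669-135887918, plus strand, GRCm38.p6: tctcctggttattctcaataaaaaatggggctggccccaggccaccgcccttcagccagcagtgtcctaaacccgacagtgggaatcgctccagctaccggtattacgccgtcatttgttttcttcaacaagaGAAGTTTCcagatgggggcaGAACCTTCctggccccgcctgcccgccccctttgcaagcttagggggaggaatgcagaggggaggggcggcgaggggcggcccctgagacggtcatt

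Treated and untreated cells were compared to ask which members differed after the conditioned medium. Hspb1 rose several-fold on both of its probe sets. Hspb2, Hspb8, Cryab and Bag3 had positive changes that were much smaller and did not pass the test. Of the 7 member probe sets tested, 2 were called higher, both of them Hspb1, and 0 were called lower (limma blocked by date, with a Benjamini-Hochberg threshold of 0.05 over all probe sets). Over all 10333 probe sets tested, 2.69% were called higher and 3.86% lower. At an unadjusted p under 0.05, 4 of the 7 member probe sets were higher and 0 lower, against 9.6% of all tested probe sets higher. All 7 were positive at both dates, against 32.3% of all tested probe sets. The median log2 change was 0.51 over the 7 probe sets and 0.41 over the 5 that do not belong to Hspb1, against 0.01 over all tested probe sets. The treated arrays lay above the untreated arrays without overlap for 5 of the 7, and for 23.4% of all tested probe sets.

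**Figure D1:**
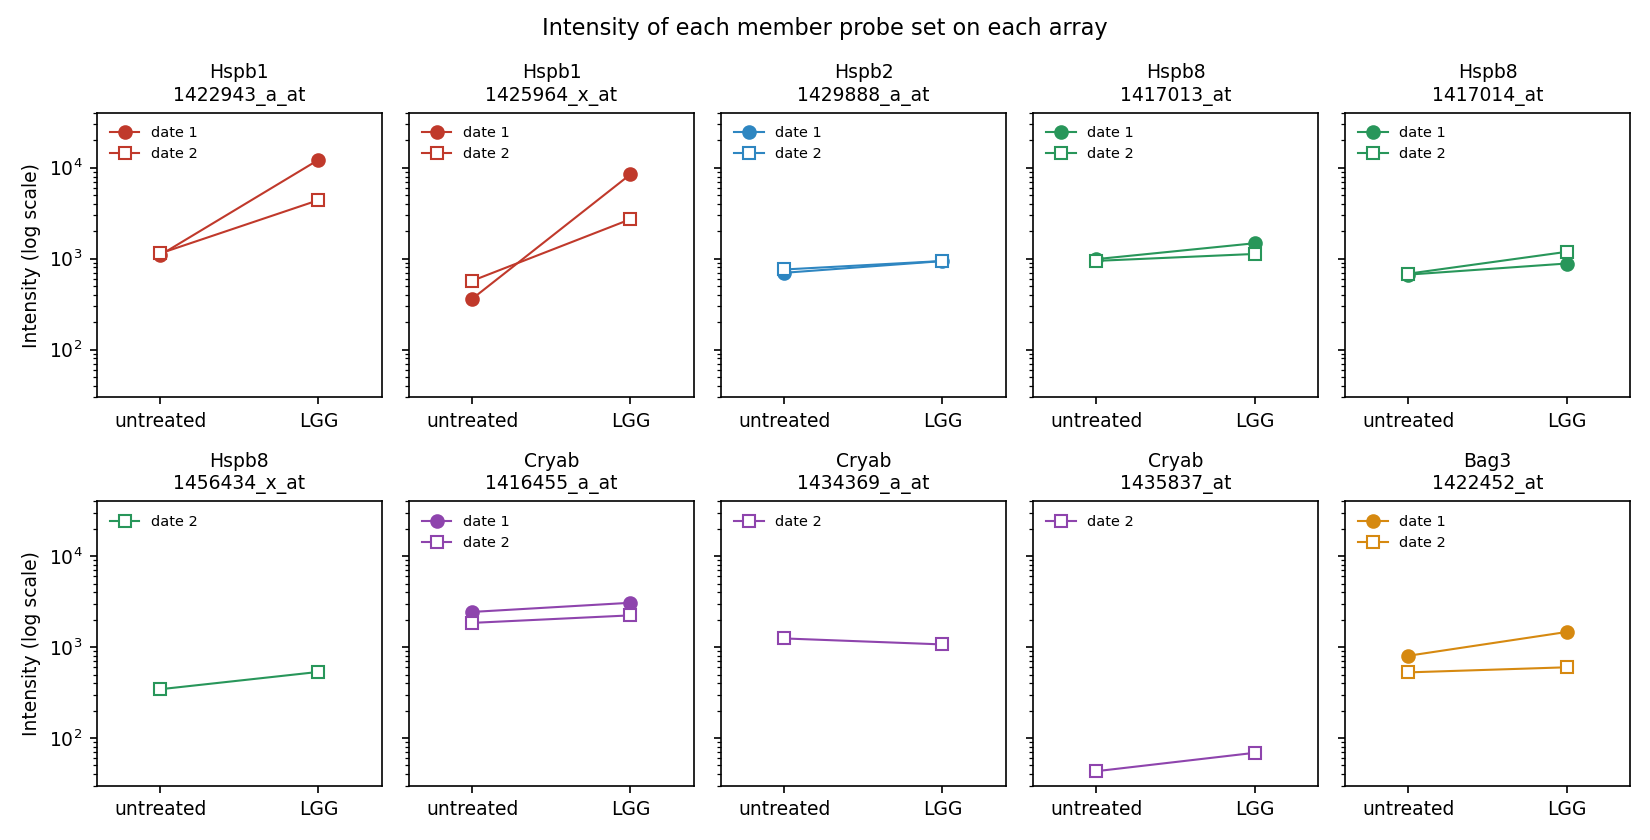
Intensity (log scale) of the 10 member probe sets on each array, with a line joining the untreated and the LGG array of the same date; filled circles are date 1 and open squares date 2, each point is 1 array, and there are no error bars. Both Hspb1 probe sets climb steeply at both dates, to 12218.3 and 8468.4 at date 1, while the lines of the other members are less steep, with 1.80-fold for Bag3 at date 1 the largest of their ratios. The 3 panels with squares alone are the probe sets with no value at date 1.

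Hspb1 was measured by 2 probe sets. Probe set 1422943_a_at read 1100.4 untreated and 12218.3 treated at date 1, and 1145.2 untreated and 4402.4 treated at date 2. The untreated arrays were nearly equal, and the lower treated array still stood 3257 intensity units above the higher untreated one. The ratio of treated to untreated, with the pseudocount of 25.2 added to each value, was 10.9-fold at date 1 and 3.78-fold at date 2. The group means were 1123 ± 31.7 and 8310 ± 5527 (SD, n = 2), and the fitted log2 change was 2.68 ± 0.26 (SE; 95% interval 2.11 to 3.25; limma, adjusted p = 0.000186). The log2 ratios within the dates, 3.44 and 1.92, both lay outside this interval. The SE, interval and p-value rest mostly on variance shared across genes, and understate how far the dates differed for Hspb1.

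The second Hspb1 probe set, 1425964_x_at, whose suffix marks probes that may also bind other transcripts, read 363.7 untreated and 8468.4 treated at date 1, and 572.7 untreated and 2716.3 treated at date 2. Here too the groups were far apart and the treated array of date 1 was the highest. The ratios were 21.8-fold at date 1 and 4.58-fold at date 2, and the fitted log2 change was 3.32 ± 0.36 (95% interval 2.55 to 4.10; limma, adjusted p = 0.000307). The log2 ratios within the dates, 4.45 and 2.20, again lay outside the interval. Ranked by the ratio within a date among the 10333 tested probe sets, the Hspb1 probe sets had ranks 6 and 5 at date 1 and 19 and 11 at date 2. The rise was thus near the top of the table on either date, with the larger ratio at date 1 on both probe sets. The log2 ratio was 1.52 larger at date 1 than at date 2 on 1422943_a_at and 2.25 larger on 1425964_x_at. With 1 array per group and date, this difference between the dates could not be tested. Without LGG replicate 1 the log2 changes of these probe sets were 1.95 and 2.51, without LGG replicate 2 they were 3.42 and 4.14, and both passed each time. Both calls were lost without untreated replicate 1 (adjusted p = 0.289 and 0.282), without untreated replicate 2 (0.398 and 0.363) and with no filter on dim probe sets (0.0818 and 0.0907), settings under which limma called 0 of all probe sets. The 2 probe sets belong to the same gene and share the same RNA, so they are not replicates of each other.

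**Figure D2:**
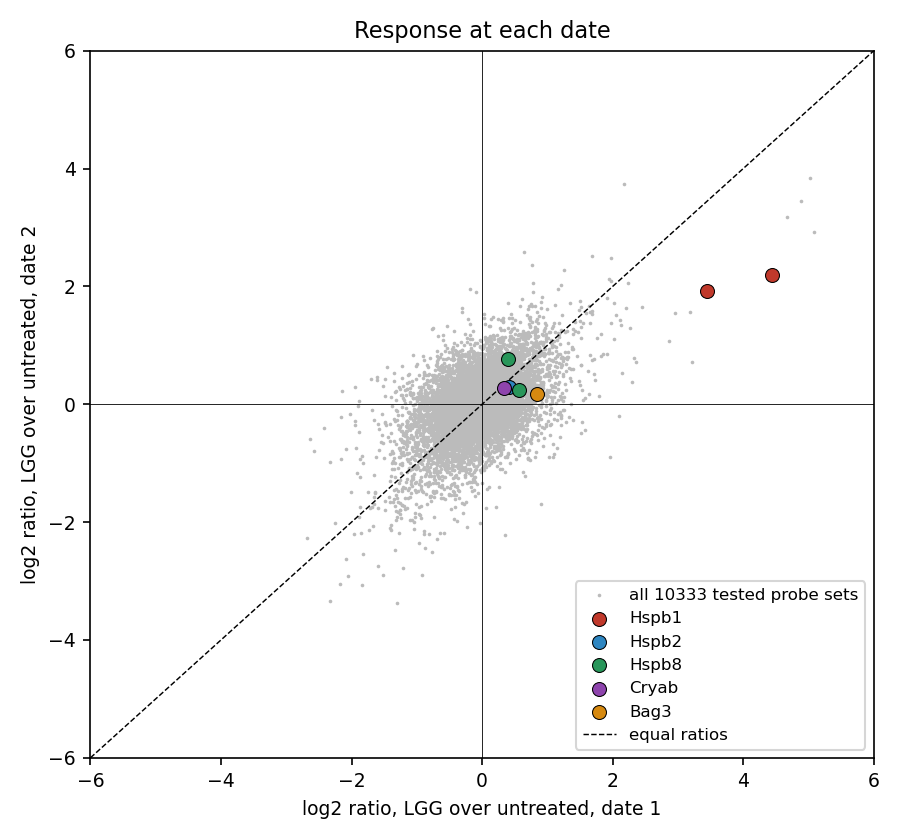
Log2 ratio of LGG over untreated at date 1 (horizontal axis) and date 2 (vertical axis) for all 10333 tested probe sets (grey) and the 7 tested member probe sets (coloured by gene); the dashed line marks equal ratios and each point has 1 array per group and date. The Hspb1 points sit at 3.44 and 1.92 and at 4.45 and 2.20, outside the grey cloud and under the dashed line, and the other members sit within the cloud.

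Hspb8 encodes the small heat shock protein that binds Bag3. On 1417013_at it went from 989 to 1477.5 at date 1 and from 946.1 to 1127.2 at date 2. On 1417014_at it went from 668.1 to 884.7 at date 1 and from 684.2 to 1189.3 at date 2. The groups did not overlap on either probe set, but the larger ratio fell at date 1 on the first (1.48-fold, and 1.19-fold at date 2) and at date 2 on the second (1.71-fold, and 1.31-fold at date 1). The fitted log2 changes were 0.41 ± 0.21 (95% interval -0.0374 to 0.85) and 0.58 ± 0.22 (0.11 to 1.05), and neither passed (limma, adjusted p = 0.289 and 0.142). The intervals end at 1.80-fold and 2.08-fold, below the fitted 6.41-fold and 10.0-fold of the Hspb1 probe sets. They rest mostly on variance shared across genes, and the difference from Hspb1 was not tested. A further probe set, 1456434_x_at, had values at date 2 only and read 345 on the untreated and 534.6 on the treated array, a ratio of 1.51-fold with no test.

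Bag3, the co-chaperone that links Hspb8 to Hsp70, was measured by 1422452_at. It went from 805.5 untreated to 1469 treated at date 1 and from 528.4 to 601 at date 2. The treated array of date 2 lay below the untreated array of date 1, so the groups overlapped. The ratio was 1.80-fold at date 1 and 1.13-fold at date 2, ranks 358 and 3993 among all tested probe sets. The fitted log2 change was 0.51 ± 0.23 (95% interval 0.01 to 1.01) and did not pass (limma, adjusted p = 0.233). Bag3 was lower at date 2 than at date 1 in both groups, by a log2 difference of -0.59 on the untreated and -1.25 on the treated arrays. In fits with 1 array left out and no block, the log2 change was -0.11 without LGG replicate 1 (treated, date 1) and 1.14 without LGG replicate 2, so its sign in those fits rests on 1 treated array.

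Cryab, the alpha B-crystallin of lens and muscle, went from 2442.2 to 3078.4 at date 1 and from 1850.8 to 2238 at date 2 with 1416455_a_at. The treated array of date 2 lay between the untreated arrays, so the groups overlapped, although the ratio was nearly the same at both dates (1.26-fold and 1.21-fold). The fitted log2 change was 0.30 ± 0.17 (95% interval -0.0670 to 0.67; limma, adjusted p = 0.355). The other Cryab probe sets had values at date 2 only. 1434369_a_at read 1247.7 on the untreated and 1072.1 on the treated array, a ratio of 0.862, and 1435837_at was dim, at 43.3 and 68.9. At date 2 the Cryab probe sets therefore pointed in different directions.

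Hspb2, a small heat shock protein of muscle that binds the myotonic dystrophy kinase, went from 699.6 to 941.1 at date 1 and from 760.8 to 943 at date 2 with 1429888_a_at. The treated arrays were almost equal and both lay above the untreated ones. The ratio was 1.33-fold at date 1 and 1.23-fold at date 2, and the fitted log2 change was 0.36 ± 0.21 (95% interval -0.10 to 0.82; limma, adjusted p = 0.381). In the RefSeq gene table the span of Hspb2 lies within that of Cryab on chromosome 9. Whether the probes of either gene could pick up transcripts of the other was not tested.

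**Figure D3:**
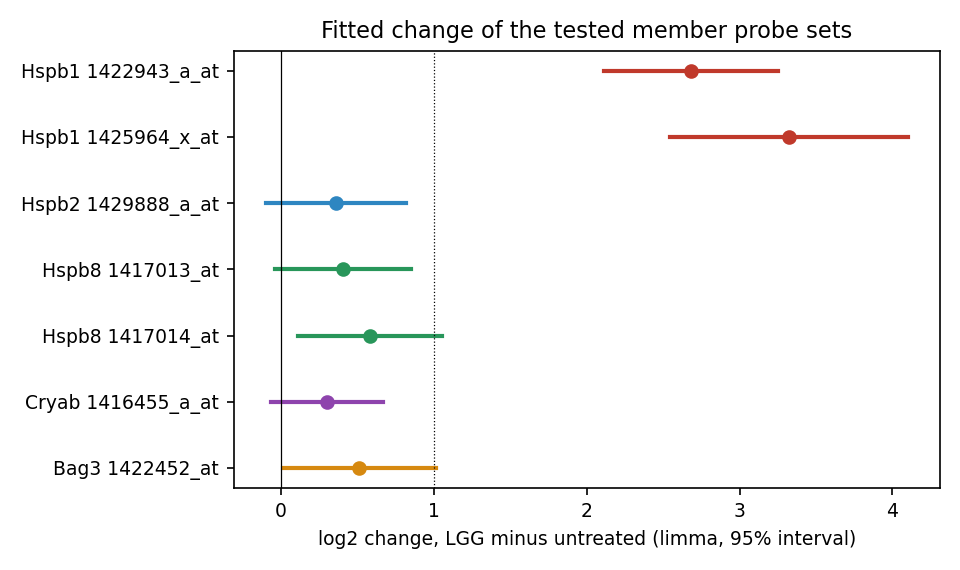
Fitted log2 change, LGG minus untreated (horizontal axis), of the 7 tested member probe sets; points are limma estimates with date as a block and bars are 95% intervals, the solid line marks no change and the dotted line a 2-fold rise. The intervals of the Hspb1 probe sets start at 2.11 and 2.55, and those of the other members end between 0.67 and 1.05; the difference between Hspb1 and the other members was not itself tested.

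A 2-fold rise at both dates, counted without a test, was reached by 2 of the 7 member probe sets, both of Hspb1, and by 0.697% of all tested probe sets. For 6 of the 7 the log2 ratio was larger at date 1, the exception being Hspb8 on 1417014_at. The ratio of 3′ to 5′ signal, which reflects RNA integrity, was 0.805 untreated and 0.931 treated at date 1 for the Gapdh control probe sets, against 0.784 and 0.768 at date 2. For those of Actb it was 1.11 untreated and 1.20 treated at date 1, against 1.08 and 1.05 at date 2. The part of this shift in the larger ratios at date 1 was not tested.

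The pattern over the 4 arrays was compared with that of 6947 other genes, as the Euclidean distance between log2 values centred on each gene's mean. The genes nearest to Hspb1 were Hbegf, an EGF receptor ligand (distance 0.32), Ddit3, a stress transcription factor (0.61), and the kinase gene Sgk1 (0.75). Hbegf went from 141.4 to 1482.6 at date 1 and from 163.3 to 533.1 at date 2, highest on the treated array of date 1. Hbegf, Ddit3 and Sgk1 were picked for patterns close to that of Hspb1, so their likeness to it is no separate result. For the members that did not pass, the nearest genes were Unc119b, Nudt4 and Rab5if for Hspb2, Tnfaip1, Clock and Sos2 for Hspb8, Elane, Ilrun and Cyp2e1 for Cryab, and Gnai2, Cox6a2 and Cyp2c29 for Bag3. Their distances ran from 0.0197 to 0.185, and none of these 12 genes passed the test. They were chosen for patterns close to members that did not pass, so this is no separate result. The sign of Gnai2 and Cyp2c29 turned without LGG replicate 1 (-0.19 and -0.0434), in a fit with no block. Within the dates their log2 ratios were positive, 0.68 and 0.18 for Gnai2 and 0.63 and 0.33 for Cyp2c29.

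Other members of the small heat shock family were scarcely measured. Of 6 listed, Hspb7, a cardiac small heat shock protein, was the only one tested. It went from 126.6 to 134.6 at date 1 and from 91.2 to 114.2 at date 2 (log2 change 0.17, limma adjusted p = 0.795). Its sign turned without untreated replicate 2 (-0.0244), in a fit with no block. Cryaa, Hspb3 and Odf1 read at most 17.4 on every array, below the filter, and Hspb6 and Hspb9 were not analysed here. Of 5 further BAG family co-chaperones, 4 were tested and 0 passed in either direction by limma, also at an unadjusted p under 0.05. Their log2 changes were 0.30 for Bag1, 0.24 for Bag2, -0.24 for Bag4 and -0.25 for Bag6, with a median of -0.000848. Over all 6952 genes tested, each by its brightest probe set, 3.01% were called higher, 3.5% lower and the median log2 change was 0.03. At an unadjusted p under 0.05, 10.5% of these genes were higher and 9.81% lower.

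Of 19 genes listed as HSF1, its relative Hsf2 and heat-inducible targets, 16 were tested, of which 4 rose, 0 fell and 12 did not pass by limma (7 higher and 0 lower at an unadjusted p under 0.05). Hsf1 itself was not analysed here, and Hsf2 was below the filter. The 4 were the inducible Hsp70 genes Hspa1b (log2 change 4.17 ± 0.28) and Hspa1a (4.01 ± 0.39), and the Hsp110 family genes Hspa4l (1.62 ± 0.24) and Hsph1 (1.25 ± 0.19). Hspa1a read 27.5 and 29.3 untreated, near the pseudocount and below the filter, which it passed through its treated values alone, so the size of its change depends on the pseudocount (4.65 at 1% and 2.89 at 20% of the trimmed mean). Hspa1a and Hspa1b are close paralogs, and how far the probes tell them apart was not tested. Hspa8, the constitutive Hsp70, had a log2 change of 0.11 (adjusted p = 0.682). Dnajb1, an Hsp40 that works with Hsp70 and is induced by heat, did not pass on its brightest probe set, where the log2 ratio was 1.24 at date 1 and -0.0994 at date 2 (0.57, adjusted p = 0.229), and its other probe set had a log2 change of -0.37. The list median was 0.33, with 0.52 at date 1 and 0.18 at date 2. These 4 calls were lost under the same 3 settings as those of Hspb1. That of Hsph1 was also lost when date was not a block (adjusted p = 0.105) and without LGG replicate 1 (0.0668). By fitted change Hspb2, Hspb8, Cryab and Bag3 lay within the range of the 12 genes that did not pass, 0.01 to 0.57 on their brightest probe sets, apart from Hspb8 on 1417014_at (0.58). Over all tested probe sets of these 12 genes the range was -0.62 (Dnaja1) to 0.62 (Hsp90aa1), which holds that value too. Of the 15 genes of this list with a promoter in the table, 9 held a GAANNTTC or TTCNNGAA match in at least 1 of their windows, against 17.0% of all genes in the table. These are not 9 separate places, since the windows of Hspd1 and Hspe1 overlap and share their matches and those of Hspa1a and Hspa1b have the same letters. The genes were listed as HSF1 targets, so a share above that of all genes is no result about the treatment. Chordc1 held the most matches, 5, with a log2 change of 0.01, and Hspa4l rose with 0.

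**Figure D4:**
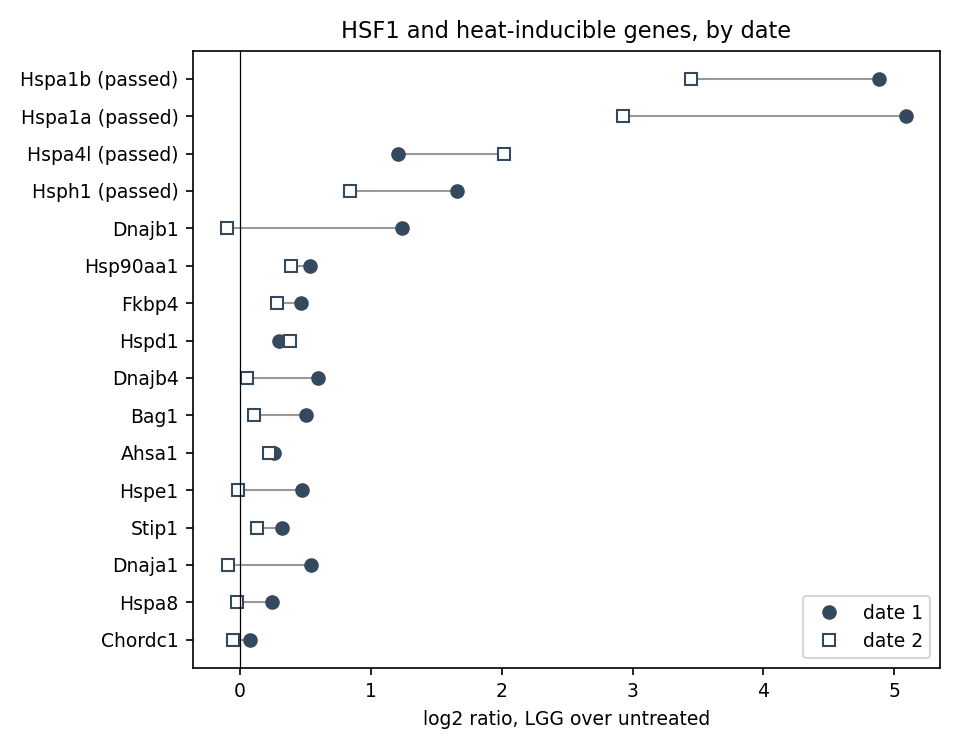
Log2 ratio of LGG over untreated (horizontal axis) at date 1 (filled circles) and date 2 (open squares) for the 16 tested genes of the HSF1 list, ordered by fitted change; each point has 1 array per group. Hspa1b and Hspa1a lie between 2.93 and 5.09, and 12 of the 16 genes did not pass.

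Partners of Bag3 in chaperone-assisted autophagy were 17 listed genes, of which 13 were tested and 0 passed in either direction by limma (1 higher and 0 lower at an unadjusted p under 0.05, median 0.08). Sqstm1, the autophagy receptor p62, went from 2340.2 to 3095 at date 1 and from 2300 to 3321.6 at date 2, with no overlap, but did not pass (log2 change 0.46, adjusted p = 0.125). Map1lc3a, an autophagosome protein, had a log2 change of 0.28, the client filamin gene Flna -0.35 and the Hsp40 gene Dnajb6 -0.33, none of which passed. Of 13 kinases and regulators of the p38 pathway, 9 were tested, 1 rose, 1 fell and 7 did not pass (median 0.14). Dusp1, a phosphatase that switches p38 off, rose from 599.7 and 656.9 to 2695.2 and 1703.2 (1.73 ± 0.23, adjusted p = 0.000746). Map2k4, a kinase upstream of p38 and JNK, fell from 654 and 530.7 to 344.9 and 290.5 (log2 change -0.85 ± 0.23, adjusted p = 0.0454). Its other tested probe set fell as well (log2 change -1.02, limma adjusted p = 0.0203). The alternatives were read on the brightest probe set only. The call of Map2k4 was lost when date was not a block (adjusted p = 0.141), under median scaling (0.0631) and without LGG replicate 1 (0.0544) or LGG replicate 2 (0.154), among others. Both calls were lost without either untreated replicate and with no filter. Mapkapk5 (0.44) and Mapk12 (0.42) did not pass. The arrays measure transcripts, so the phosphorylation of Hspb1 was not measured.

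Of 11 cytoskeletal clients of small heat shock proteins, 10 were tested and 0 passed in either direction by limma (1 higher and 2 lower at an unadjusted p under 0.05, median 0.14). Krt18, an epithelial keratin, went from 834.8 to 1966.8 at date 1 and from 1319 to 1431.1 at date 2 (0.66, adjusted p = 0.138). Krt19, another keratin, had a log2 change of -0.72, Capzb, an actin capping protein, -0.56 and Actb 0.43, and none of these passed.

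The cells were checked against markers. Of 13 epithelial markers with values, 3 (Krt8, Krt18 and Krt19) had a mean above the filter, and Epcam, Cdh1, Vil1, Cdx1 and Cdx2 did not. Of 9 fibroblast and mesenchymal markers, 6 did, led by Vim. The summed intensity of the epithelial list was 2486 and 3367 untreated and 3471 and 2975 treated. That of the mesenchymal list was 37609 and 32367 untreated and 29481 and 27103 treated. Of its 6 tested genes 0 had a positive log2 change (median -0.34), and Dcn, a matrix proteoglycan, fell from 7734.1 to 4084.9 at date 1 and from 8376.2 to 4473.8 at date 2 (log2 change -0.91 ± 0.13, adjusted p = 0.0014). Col1a2 (-0.59), Pdgfra (-0.44) and Vim (-0.25) did not pass. Col1a1 (-0.04) and Acta2 (-0.02) were nearly flat, each with opposite signs at the dates. Of the muscle markers, listed because Cryab and Hspb2 are muscle genes, 1 of 8 (Des) was above the filter, and the sum was 498.2 and 362.6 untreated and 420.9 and 588.4 treated. Of 6 immune markers Cd68 alone was above it, and it rose from 146 and 101.2 to 274.1 and 289 (adjusted p = 0.0314), while Ptprc was below it. The part of these shifts in the changes of the members was not tested, and fewer cells of a type cannot be told apart from less RNA per cell.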

How the data were processed

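Total RNA from YAMC cells was hybridised to mouse 430A arrays, 4 in all. Linear intensity values were deposited as a single table; its software, scaling and filters are not given in the sources used here. Trimmed means without the lowest and highest 2% were 500.1 to 513.5, so values were used as deposited. At date 1, 6307 of the 22690 probe sets lacked a value on both arrays. Groups and dates came from the titles; each date holds 1 array of each group, so date was a block. As same-dated arrays are paired by their titles, no further check decided the pairing. The members, lists and tests were chosen with earlier results of these data known.

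Values were taken as log2(intensity + 25.2), which understates the fold of dim genes; the pseudocount is 5% of the typical trimmed mean, taken as a geometric mean. The 10333 probe sets with values on all arrays and a mean of at least 101 (20% of it) were fitted with limma 3.58.1 in R 4.3.3 (lmFit, eBayes with an intensity trend, Benjamini-Hochberg over all of them, two-sided). The fit had 1 residual and 12.5 prior degrees of freedom, so SEs, intervals and p-values rest mostly on variance shared across genes. Tested on simulated data, the fit returned the changes that had been put in, but a larger share of its calls was false than the nominal one. A two-sided exact permutation of 2 against 2 arrays that ignores date cannot go below p = 0.333. One that exchanges labels only within a date has fewer arrangements and a higher floor. In lists, a gene is represented by its brightest tested probe set. Of the probe sets, 20393 had 1 symbol, 691 several and 1606 none. Named were all members, of each list the genes that passed and up to 4 that moved most and in 1 direction at both dates, Hspa1a, Hspa1b, Hspa8, Dnajb1 and Hsph1, and the 3 genes nearest in pattern to each member; dim family members and markers were named after their values were seen. Alternatives covered the block, pseudocount, filter, scaling, variance model and each array left out. No build is named for the array; promoter coordinates are those of the RefSeq table. Figures were drawn with matplotlib 3.10.9.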

Additional observations from a re-analysis of the deposited data

How the results depend on the processing

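All 13 alternatives kept the sign of the 7 member probe sets, except Bag3 without LGG replicate 1 (log2 change -0.11, against 1.14 without LGG replicate 2). In this balanced design, leaving out the block or changing the filter or variance model cannot alter the fitted change. The sign under those alternatives was therefore fixed in advance. Both Hspb1 probe sets passed in 10 of the 13, and no probe set of Hspb2, Hspb8, Cryab or Bag3 passed in any. With date left out of the fit, the version without the replicate block, 39 probe sets were called higher and 58 lower; both Hspb1 probe sets kept their calls and 1 gene of the p38 list passed, in place of 2. With no filter limma called 0 probe sets higher and 0 lower (2296 at an unadjusted p under 0.05), so 0 member probe sets, 0 genes of the HSF1 list and 0 of the p38 list passed, and the Hspb1 log2 changes, 2.68 and 3.32, missed the threshold. Without an intensity trend 164 probe sets were higher and 214 lower, and under median scaling 250 were lower; in both, and with a pseudocount of 1% of the trimmed mean, 1 gene of the p38 list passed. With 1 array left out and no block, 0 to 268 probe sets were higher and 0 to 370 lower, with 0 to 2 member probe sets, 0 to 5 genes of the HSF1 list, 0 to 1 of the p38 list and 0 to 1 of the cytoskeletal clients (Capzb, without LGG replicate 1) called. Both Hspb1 calls were lost without untreated replicate 1 and without untreated replicate 2, where 729 and 818 probe sets had an unadjusted p under 0.05 and the spread came from the LGG pair alone; the Hspb1 log2 changes ranged from 1.95 to 3.42 and from 2.51 to 4.14. With 1 array left out the log2 change ranged from -0.0244 to 0.36 for Hspb7 and from -0.0483 to 0.27 for Hspa8. It ranged from -0.19 to 1.04 for Gnai2 and from -0.0434 to 1.00 for Cyp2c29. The sign turned without untreated replicate 2 for Hspb7 and without LGG replicate 1 for the others. Those fits have no block and set 1 array against the mean of the other group over both dates. Within each date the log2 ratio was positive for Hspb7, Gnai2, Cyp2c29 and Bag3, while that of Hspa8 was -0.0231 at date 2. What sets the dates apart was not tested. With 2 arrays a group precision is low, and no detection calls were used here, so dim values carry no bound against background.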
